A study of Mus musculus with 12 samples.

Results

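Ret, the 4 GFRalpha co-receptor genes Gfra1 to Gfra4 and the 4 ligand genes Gdnf, Nrtn, Artn and Pspn were followed in sorted sensory neurons of the mouse dorsal root ganglia (DRG). The 9 genes were chosen by name as the receptor tyrosine kinase RET, its co-receptors and the GDNF family ligands. All 9 were found among the 41388 genes of the deposited count tables. Of these 9 genes, 5 (Ret and the 4 co-receptors) passed the filter on low counts, which kept 15281 genes in all. The 4 ligand genes did not pass it and are given as counts.

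Sorted cells came from ganglia of levels L6 and S1 (called L6S1) or of levels L3, L4 and L5 (called L345) of C57BL/6 mice aged 3 months. Each level had 3 male and 3 female libraries, so that the males gave L6S1 libraries A, B and C and L345 libraries A, B and C, while the females gave L6S1 libraries A, B and C and L345 libraries B, C and D. All 4 groups were made from RetFloxedEGFP:NaV1.8Cre mice, and no group lacked these alleles. The knocked-in Ret locus was heterozygous, with a floxed RET9 allele followed by EGFP that is expressed only after Cre has cut. Cre was driven from the locus of the sodium channel NaV1.8 (Scn10a tm2(cre)Jnw), and cells were collected by fluorescence-activated sorting. The EGFP gate was thus meant for neurons in which the NaV1.8 driver and the Ret locus have both been active. For 4 libraries of a later submission (female L345 D, female L6S1 B and C, male L6S1 C) the genotype field names only 1 of the 2 alleles, while their protocol names both. Each library was a pool of 2 to 8 mice and 12 to 32 ganglia, so that the spread between libraries is a spread between pools. The shallowest library, female L6S1 A, held 16176436 counts and the deepest, female L345 D, 26694404. In counts scaled to the library total (CPM), 3 counts, taken as the floor, came to 0.112 to 0.185, a limit that covers counting error only.

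RET is a receptor tyrosine kinase that does not bind its ligands alone. A GDNF family ligand first binds a GFRalpha co-receptor anchored in the membrane by a lipid, and the pair then brings RET molecules together, so that a cell's co-receptors set which ligand it can read. GDNF prefers GFRalpha1, neurturin (Nrtn) GFRalpha2, artemin (Artn) GFRalpha3 and persephin (Pspn) GFRalpha4. In rodent DRG, Gfra2 is known from non-peptidergic nociceptors and from C low-threshold mechanoreceptors, Gfra3 from heat-sensitive peptidergic nociceptors, and the ligands are largely made by the tissues that these neurons innervate.

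The sorted cells carried the transcripts of sensory neurons at both levels. All 8 listed genes of sensory neurons in general were above 3 counts in 12 of 12 libraries, as were all 13 non-peptidergic, all 5 C low-threshold mechanoreceptor and all 9 peptidergic marker genes. Scn10a, the Cre locus, had 429 ± 66.5 CPM at L6S1 and 573 ± 96.0 CPM at L345 (SD, n = 6 each), with a log2 fold change of -0.42 ± 0.14 (SE) and an edgeR Benjamini-Hochberg adjusted p of 0.101. Other cell types were in the sort as well. The 17 markers of satellite glia and Schwann cells, none of them at 0 in any library, summed to 3990 to 4880 CPM at L6S1 and 3830 to 4460 CPM at L345. The 9 fibroblast markers, of which Mgp was at 0 in some library, summed to 148 to 531 CPM at L6S1 and 86.5 to 109 CPM at L345. Immune markers (11 genes, with C1qa, C1qc and Cd3e at 0 in some library) summed to 13.8 to 230 CPM at L6S1, the highest in female L6S1 C, and 6.04 to 7.08 CPM at L345. Summed markers of large myelinated neurons, 9 genes with none at 0, were 1340 CPM in female L6S1 B and 2210 CPM in female L6S1 C. The other 10 libraries had 3540 to 4340 CPM of them. The 13 endothelial and mural markers, with Cldn5, Flt1, Kcnj8 and Myh11 at 0 in some library, summed to 238 to 427 CPM at L6S1 and 231 to 332 CPM at L345. Between levels, 4 immune markers (Trac, C1qb, H2-Aa and Cd74) of 7 tested and 1 fibroblast marker (Dcn) of 7 tested rose at L6S1, where 1.45% of all tested genes did. The calls for H2-Aa and Cd74 were lost in 7 and 8 of 12 fits with a library left out, and those for Trac, C1qb and Dcn in none. None of the 17 glial, 9 endothelial and mural, 9 large myelinated and 8 general sensory genes tested passed in either direction, although Tubb3, a neuronal tubulin gene of the last list, passed with GC and length offsets (0.48, edgeR adjusted p = 0.032). That fit called 5.24% of all tested genes. The part of these cells in the values of the receptor genes was not tested.

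The level of each gene per kilobase of its counted length gave the same order in 12 of 12 libraries. Gfra3, the artemin co-receptor gene, came first, followed by Gfra2, Ret, Gfra1 and Gfra4, and Gfra4 lay above each of the 4 ligand genes in 12 of 12 libraries. Gfra3 had 108 to 206 CPM per kilobase at L6S1 and 112 to 153 CPM per kilobase at L345. Gfra2 had 60.5 to 94.4 CPM per kilobase at L6S1 and 76.4 to 113 CPM per kilobase at L345. Taken over all libraries these neighbouring genes overlapped in range, but within each library Gfra3 was the higher per kilobase. At L345 this order depends on the division by length. In CPM, Gfra2 averaged 344 and Gfra3 271 at L345, against 269 and 330 at L6S1.

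Ret itself had 18.6 to 31.3 CPM per kilobase at L6S1 and 18.4 to 27.3 CPM per kilobase at L345, below both major co-receptor genes in each library. Gfra1, the co-receptor gene for GDNF, had 8.26 to 16.2 CPM per kilobase at L6S1 and 8.8 to 15.1 CPM per kilobase at L345. Ranges of Ret and Gfra1 did not overlap. Gfra4, the persephin co-receptor gene, had 1.34 to 4.41 CPM per kilobase at L6S1 and 2.46 to 3.55 CPM per kilobase at L345.

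Gfra4 (ENSMUSG00000027316, chromosome 2, 131039632 to 131043088, minus strand of GRCm38.p2) was the co-receptor gene of lowest expression, with 69 to 254 counts at L6S1 and 105 to 207 counts at L345. Its count sums reads from 2 annotated transcript starts. Both start windows are shown because a gene-level count cannot say which of them was in use. They come from the RefSeq table for GRCm38.p6, are read on the minus strand from 250 bases before to 50 bases after the start, and are written in lower case with the bases inside the counted exons in capitals.
Gfra4 start at 131043088, chr2:131043039-131043338: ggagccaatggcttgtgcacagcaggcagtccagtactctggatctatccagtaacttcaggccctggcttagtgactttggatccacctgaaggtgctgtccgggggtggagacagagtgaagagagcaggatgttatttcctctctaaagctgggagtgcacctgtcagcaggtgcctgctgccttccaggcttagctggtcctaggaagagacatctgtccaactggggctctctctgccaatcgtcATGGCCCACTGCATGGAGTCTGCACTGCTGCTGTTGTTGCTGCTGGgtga
Gfra4 start at 131042682, chr2:131042633-131042932: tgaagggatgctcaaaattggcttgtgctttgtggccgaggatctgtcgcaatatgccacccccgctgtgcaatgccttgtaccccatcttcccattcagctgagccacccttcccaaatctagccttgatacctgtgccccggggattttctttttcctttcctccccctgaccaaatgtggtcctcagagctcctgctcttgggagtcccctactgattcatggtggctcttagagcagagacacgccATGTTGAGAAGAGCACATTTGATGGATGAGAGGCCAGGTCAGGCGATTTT
In the first window 46 bases lie in a counted exon, and in the second 50 bases do. The windows hold 2 and 6 CG dinucleotides, against a median of 7 over 32851 windows of the same table, and their GC content is 55.7% and 52.7%. Windows matched 6 of the 9 genes in that table (Gfra1, Gfra4 and the 4 ligand genes). One annotated microRNA gene, Mir6973b, shares 80 exonic bases with Gfra4 and had 0 counts in all 12 libraries.

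**Figure D1:**
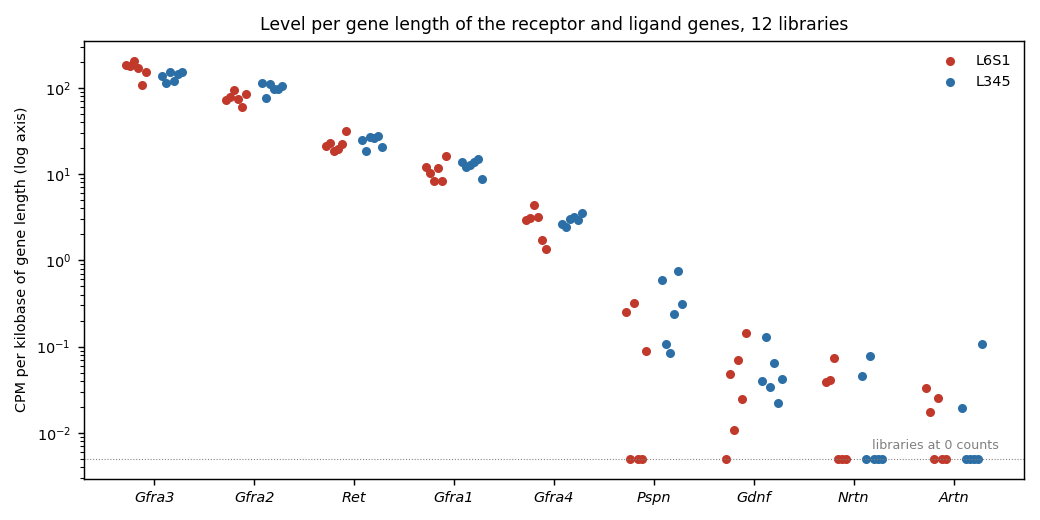
Each point is 1 of the 12 libraries (6 from L6S1, red; 6 from L345, blue), with CPM per kilobase of gene length on a log axis and the genes ordered by level; libraries with 0 counts are drawn on the dotted line. The receptor genes run down from Gfra3 at 108 to 206 to Gfra4 at 1.34 to 4.41, with the ranges of Gfra3 and Gfra2 touching, and the ligand genes lie below them.

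Ligand transcripts were close to the counting floor. Gdnf (ENSMUSG00000022144, chromosome 15, 7811011 to 7837575, plus strand of GRCm38.p2), whose protein is the ligand of GFRalpha1, had 0, 4 and 1 counts in male L6S1 A, B and C, against 3, 9 and 3 counts in male L345. The female L6S1 libraries A, B and C had 4, 2 and 12 Gdnf counts, against 6, 2 and 4 counts in female L345 B, C and D. The levels overlapped, with 3 of 6 libraries of each level above 3 counts.

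Nrtn (ENSMUSG00000039481, chromosome 17, 56751325 to 56757530, minus strand) had at most 2 counts in any library and was at 0 in all 6 female libraries and in 1 male L345 library. Artn (ENSMUSG00000028539, chromosome 4, 117926162 to 117929763, minus strand) was at 0 in 3 of 6 L6S1 libraries and 4 of 6 L345 libraries. A single library, female L345 D with 7 counts, lay above 3 counts of Artn, while the others had at most 2. Artn, the ligand gene of GFRalpha3, was thus not detectable above the floor in 11 of 12 libraries in cells where Gfra3 is the co-receptor gene of highest level per kilobase.

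Pspn (ENSMUSG00000002664, chromosome 17, 56999457 to 57000018, minus strand) had 3, 0 and 4 counts in male L6S1 and 0, 0 and 1 counts in female L6S1. The L345 libraries had 6, 1 and 1 Pspn counts in males and 3, 9 and 4 counts in females. Female L6S1 was the lowest of the 4 groups in Pspn counts, but the levels overlapped, and the gene was below the filter for a test. Summed over the 4 ligand genes, L6S1 libraries had 2 to 13 counts and L345 libraries 6 to 15 counts. The 4 co-receptor genes had 10907 to 21049 counts in L6S1 libraries and 10989 to 19450 counts in L345 libraries.

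The main comparison asked how these receptor neurons differ between L6S1 ganglia, home to afferents of the pelvic organs, and L345 ganglia, whose neurons run mostly to the hindlimb. None of the 5 tested receptor genes was called at an edgeR adjusted p under 0.05, while 2.33% of all tested genes were. Gfra2 was lower at L6S1 by point estimate and Gfra3 higher, and neither difference passed. For each of the 5 genes the L6S1 and L345 libraries overlapped, as they did for most genes (3.24% of tested genes did not overlap). These are bulk samples, so fewer cells of a type and less RNA per cell cannot be told apart.

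Ret (ENSMUSG00000030110, chromosome 6, 118151748 to 118197744, minus strand) encodes the shared signalling receptor. Its counts ran from 2328 to 5488 at L6S1 and from 2656 to 5137 at L345. In TMM-scaled CPM, Ret had 155, 167 and 137 in male L6S1 A, B and C, against 180, 135 and 200 in male L345. Female L6S1 had 142, 161 and 230 CPM of Ret in A, B and C, against 190, 201 and 150 CPM in female L345 B, C and D. Female L6S1 C stood above all other libraries of either level, and the other 5 of the 6 L6S1 libraries were lower than the average of same-sex L345. The log2 fold change was -0.09 ± 0.15 (SE, edgeR adjusted p = 0.696). Its sign turned, to 0.10, with offsets for GC content and transcript length, so no direction is given. Gene-level counts do not separate the floxed RET9 allele from the other Ret allele, nor the Ret isoforms. By the design, cells that express EGFP have had the floxed RET9 allele cut by Cre and were chosen for an active Ret locus. Ret levels, also beside the co-receptor genes, are therefore those of cells with an altered Ret allele. The part of each allele in the Ret counts was not tested.

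Gfra1 (ENSMUSG00000025089, chromosome 19, 58235604 to 58455909, minus strand) had 45.2 to 88.9 CPM at L6S1, median 60.3, and 48.2 to 83.0 CPM at L345, median 72.9. Both the highest and the lowest library were from L6S1. In males the 3 L6S1 libraries, at 64.9, 56.1 and 45.2 CPM, lay below the 3 L345 libraries, at 75.8, 65.2 and 70.0 CPM. The male levels stood apart in this way, in either direction, for 24.7% of all tested genes. The log2 fold change over both sexes was -0.20 ± 0.18 (SE, edgeR adjusted p = 0.468), and its sign turned, to 0.06, with a glial score as covariate. Of the Gfra1 exons, 416 bases overlap Gm16277 on the opposite strand, which had 0 counts in all 12 libraries.

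Gfra2 (ENSMUSG00000022103, chromosome 14, 70890130 to 70979838, plus strand), the neurturin co-receptor gene, had 252, 269 and 327 CPM in male L6S1 A, B and C, against 391, 264 and 378 CPM in male L345. In females it had 260, 209 and 296 CPM in L6S1 A, B and C, against 332, 335 and 363 CPM in L345 B, C and D. All 6 L6S1 libraries were lower than the average of same-sex L345. Male L345 B fell within the L6S1 range, so the levels overlapped through that library, while in females they did not overlap, as for 19.5% of all tested genes.

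Averaged per level, Gfra2 had 269 ± 40.0 CPM at L6S1 and 344 ± 45.5 CPM at L345 (SD, n = 6 each). The log2 fold change was -0.36 ± 0.13 (SE), with an unadjusted edgeR p of 0.0159 and an adjusted p of 0.115, which did not pass. Under 24 other settings of the fit it ranged from -0.45 to -0.28. The exception among them was limma-voom with quality weights, which called it at -0.45 and an adjusted p of 0.02. That tool called 21.4% of all tested genes. Within the 8 libraries of the first submission the log2 fold change of Gfra2 was -0.40 (edgeR adjusted p = 0.103). The later submission held 1 L345 library and so gives no test of its own.

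Gfra3 (ENSMUSG00000024366, chromosome 18, 34689903 to 34720387, minus strand) had 360, 354 and 410 CPM in male L6S1 A, B and C, against 271, 223 and 305 CPM in male L345. Female L6S1 had 339, 216 and 302 CPM in A, B and C, against 237, 285 and 303 CPM in female L345 B, C and D. The male levels did not overlap, as for 24.7% of all tested genes, whereas female L6S1 B was the lowest of the 12 libraries and the female levels were interleaved. Over both sexes the gene had 330 ± 66.2 CPM at L6S1 and 271 ± 34.4 CPM at L345 (SD, n = 6 each). The log2 fold change was 0.27 ± 0.13 (SE), with an unadjusted edgeR p of 0.0573 and an adjusted p of 0.202. It stayed above 0 in 24 other settings, from 0.20 to 0.39, and passed in none of them. Within the first submission it was 0.39 (edgeR adjusted p = 0.0805).

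In TMM-scaled CPM, Gfra4 had 6.43, 6.77 and 9.55 in male L6S1 A, B and C, against 5.66, 5.33 and 6.59 in male L345. In females it had 6.96, 3.69 and 2.89 CPM in L6S1 A, B and C, against 6.9, 6.41 and 7.68 CPM in L345 B, C and D. Female L6S1 B and C were the lowest of the 12 libraries and male L6S1 C was the highest. The log2 fold change over both sexes was -0.14 ± 0.20 (SE, edgeR adjusted p = 0.681), and 3 of 6 L6S1 libraries were lower than the average of same-sex L345. It turned to 0.10 in the first submission alone and to 0.18 without female L6S1 B and C, so no direction is given.

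**Figure D2:**
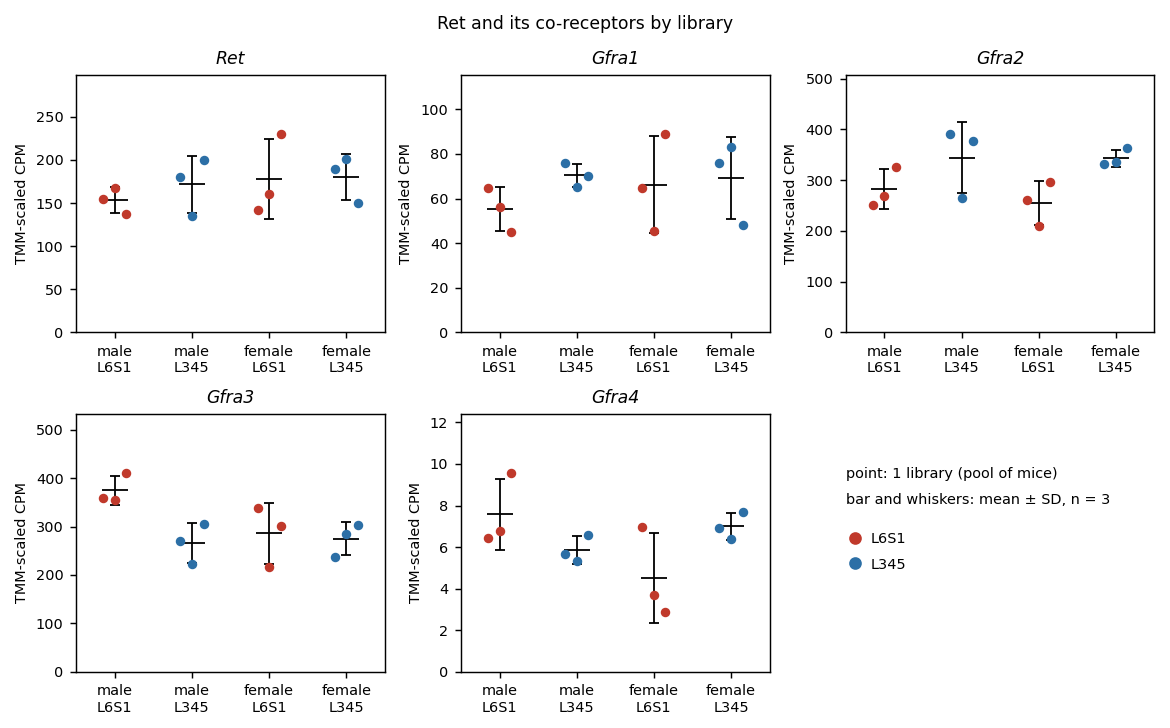
TMM-scaled CPM of the 5 tested genes in male L6S1, male L345, female L6S1 and female L345, with 1 point per library and bars for the mean ± SD (n = 3). Gfra3 in male L6S1 (354 to 410) lies above male L345 (223 to 305), Gfra2 in female L6S1 (209 to 296) lies below female L345 (332 to 363), and 2 of 3 female L6S1 libraries are low in Gfra4.

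Within males, none of the 5 receptor genes was called by edgeR (0.222% of all tested genes were). Gfra3 averaged 375 ± 30.8 CPM in male L6S1 and 266 ± 41.5 CPM in male L345 (SD, n = 3 each), with a log2 fold change of 0.49 ± 0.19 (SE, edgeR adjusted p = 0.528). Male Gfra2 averaged 81.6 ± 11.3 CPM per kilobase in L6S1 and 99.5 ± 20.2 CPM per kilobase in L345, with a log2 fold change of -0.29 ± 0.19 (SE, edgeR adjusted p = 0.624). With limma-voom, which called 12.2% of all tested genes in males, both passed, Gfra3 at 0.43 (adjusted p = 0.0306) and Gfra2 at -0.45 (adjusted p = 0.0274). The male fold changes of Ret, Gfra1 and Gfra4 were -0.17 ± 0.21, -0.34 ± 0.25 and 0.37 ± 0.29 on the log2 scale (SE), with edgeR adjusted p of 0.807, 0.656 and 0.678.

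Within females, again none of the 5 was called by edgeR, against 0.36% of all tested genes. Gfra2 averaged 255 ± 43.7 CPM in female L6S1 and 343 ± 17.3 CPM in female L345 (SD, n = 3 each), with a log2 fold change of -0.43 ± 0.19 (SE, edgeR adjusted p = 0.182). Gfra3 averaged 285 ± 63.2 CPM in female L6S1 and 275 ± 34.4 CPM in female L345, with 0.05 ± 0.19 (SE, edgeR adjusted p = 0.883). Ret and Gfra1 had -0.02 ± 0.21 and -0.06 ± 0.25 (SE, edgeR adjusted p = 0.964 and 0.903). Of these 4 genes, Gfra2 had the largest female estimate, with 3 of 3 L6S1 libraries below 3 of 3 L345 libraries.

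Gfra4 averaged 4.51 ± 2.15 CPM in female L6S1 and 7.0 ± 0.644 CPM in female L345 (SD, n = 3 each), a log2 fold change of -0.65 ± 0.29 (SE, edgeR adjusted p = 0.198). Without female L6S1 A the log2 fold change was -1.09 and the edgeR adjusted p was 0.0076. In that fit 24.5% of all tested genes were called in females. With the first submission alone, where female L6S1 A is the only female L6S1 library, it was 0.03. Female L6S1 B and C, the low libraries for Gfra4, are of the later submission and are also the 2 libraries with the lowest summed markers of large myelinated neurons. Their summed peptidergic markers were the highest of all, at 17900 and 18000 CPM, against 11100 to 14900 CPM in the other L6S1 libraries and 9860 to 11200 CPM at L345. The part of these differences in the Gfra4 value was not tested.

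The difference between the sexes in the level effect was tested directly. It was -1.02 ± 0.41 (log2, SE) for Gfra4, with an unadjusted edgeR p of 0.026 and an adjusted p of 0.871, and -0.44 ± 0.27 for Gfra3, with an adjusted p of 0.871. For Gfra2 it was -0.14 ± 0.26, for Ret 0.15 ± 0.29 and for Gfra1 0.28 ± 0.35 (edgeR adjusted p = 0.960, 0.961 and 0.921). No gene at all was called in this comparison by edgeR (0.0% of tested genes), and DESeq2 called 2. An unadjusted edgeR p under 0.05 was reached by 714 of 15281 genes, below the share of 0.05 that no effect in any gene would give. Without female L6S1 A the Gfra4 interaction was -1.46 with an edgeR adjusted p of 0.0178, in a fit that called 5.21% of all tested genes. The male and female effects on Gfra3 and Gfra4 are therefore not shown to differ in the full set of libraries.

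Between the sexes, with both levels weighted equally, edgeR called none of the 5 genes (0.0589% of all tested genes were called). Female over male log2 fold changes were 0.14 ± 0.15 for Ret, 0.12 ± 0.18 for Gfra1, -0.08 ± 0.13 for Gfra2, -0.17 ± 0.13 for Gfra3 and -0.25 ± 0.21 for Gfra4 (SE, edgeR adjusted p from 0.805 to 0.922). A missed threshold does not show that the sexes had the same levels. The signs for Ret, Gfra1 and Gfra4 turned under other settings.

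**Figure D3:**
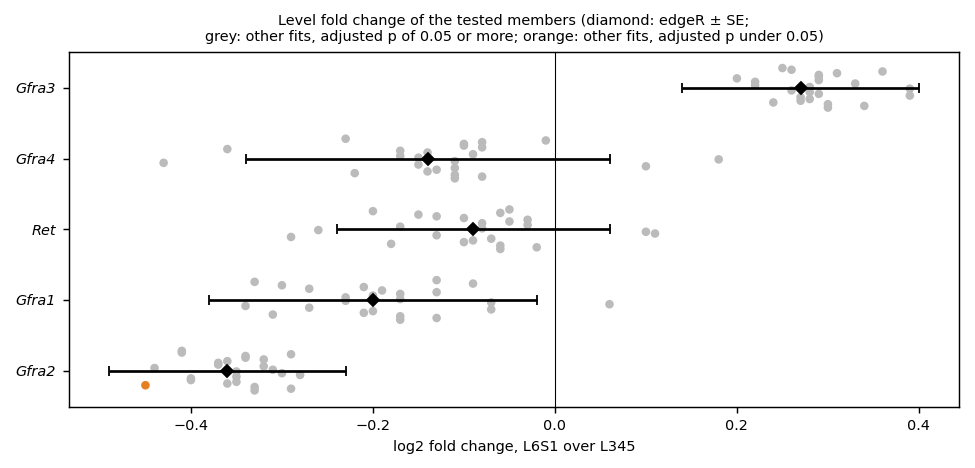
Log2 fold change of L6S1 over L345 for the 5 tested genes, with edgeR ± SE as black diamonds, 24 other settings as grey points and the single setting with an adjusted p under 0.05 in orange (limma-voom, Gfra2, -0.45). The points for Gfra2 (-0.45 to -0.28) and Gfra3 (0.20 to 0.39) stay on one side of 0, and those for Ret, Gfra1 and Gfra4 lie on both sides.

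The relation of the 2 most highly expressed co-receptor genes was read as a ratio inside each library, which does not depend on the scaling between libraries. The log2 ratio of Gfra3 over Gfra2, per kilobase, was 1.31, 1.19 and 1.13 in male L6S1 A, B and C, against 0.27, 0.55 and 0.49 in male L345. In females it was 1.18, 0.84 and 0.83 in L6S1 A, B and C, against 0.31, 0.57 and 0.54 in L345 B, C and D. The 6 L6S1 libraries all lay above the 6 L345 libraries, with medians of 1.15 and 0.51. On a linear scale, Gfra3 per kilobase was 1.77 to 2.49 times Gfra2 at L6S1 and 1.20 to 1.48 times at L345.

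The mean log2 ratio was 1.08 ± 0.20 at L6S1 and 0.45 ± 0.13 at L345 (SD, n = 6 each), a difference of 0.63. By group it was 1.21 ± 0.10 in male L6S1 and 0.44 ± 0.15 in male L345, and 0.95 ± 0.20 in female L6S1 and 0.47 ± 0.14 in female L345 (SD, n = 3 each). The difference was 0.78 within the first submission, and over 24 other settings it ranged from 0.56 to 0.78. The low end came from the offsets for GC content and length and from the glial covariate. Among 34765291 ratios of 2 genes with at least 10 CPM, 4.24% likewise kept the spinal levels apart. The ratio is given as a description, with no test.

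In the other 5 ratios computed (Gfra3/Gfra1, Gfra2/Gfra1, Gfra3/Ret, Gfra2/Ret and Gfra1/Ret) the levels overlapped. The log2 ratio of Gfra3 over Ret was 2.28 to 3.47 at L6S1 and 2.20 to 2.90 at L345. For Gfra2 over Ret it was 1.45 to 2.34 at L6S1 and 1.82 to 2.36 at L345. Gfra1 stayed below Ret per kilobase, with log2 ratios of -1.41 to -0.72 at L6S1 and -1.21 to -0.62 at L345.

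Expressed as a share of the summed level of the 4 co-receptor genes per kilobase, Gfra3 held 59.5 to 67.4% at L6S1 and 51.3 to 56.5% at L345. Gfra2 held 27.1 to 33.8% at L6S1 and 37.5 to 42.5% at L345. Both pairs of ranges stood apart. Because Gfra1 and Gfra4 made up only a small part of the sum, both shares largely restate the ratio of Gfra3 over Gfra2. They are not further, independent separations of the levels. For that ratio, 4.24% of the gene pairs compared above likewise kept the levels apart. Gfra1 held 2.64 to 6.37% at L6S1 and 3.27 to 5.99% at L345, with overlapping ranges. Gfra4 held 0.524 to 1.41% at L6S1 and 0.985 to 1.38% at L345, and these overlapped too.

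**Figure D4:**
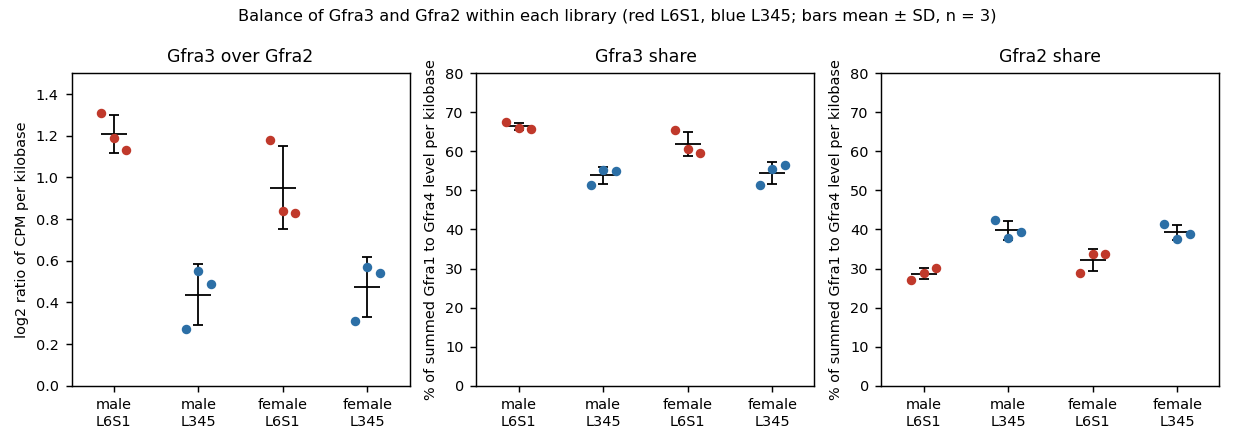
The log2 ratio of Gfra3 over Gfra2 per kilobase and the shares of Gfra3 and Gfra2 in the summed Gfra1 to Gfra4 level (%), by group, with 1 point per library and bars for the mean ± SD (n = 3). The 6 L6S1 libraries (0.83 to 1.31) lie above the 6 L345 libraries (0.27 to 0.57) in the ratio.

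The neuron classes in which these co-receptors are known were read in the same libraries. Of 9 peptidergic marker genes, 4 rose at L6S1 and none fell, with a median log2 fold change of 0.52 against -0.06 over all genes tested. Higher calls made up 1.45% and lower calls 0.877% of all tested genes. With GC and length offsets the peptidergic median was 0.30, against 0.014 over all genes tested. The same 4 genes passed there, in a fit that called 5.24% of all tested genes. Gal, the precursor of the peptide galanin, had 503 ± 76.7 CPM at L6S1 and 229 ± 65.1 CPM at L345 (SD, n = 6 each), with 1.14 ± 0.17 (log2, SE, edgeR adjusted p = 0.00373). Trpv1, the heat and capsaicin channel, had 779 ± 81.9 CPM at L6S1 and 543 ± 90.6 CPM at L345 (0.52 ± 0.12, edgeR adjusted p = 0.0424). Tac1, the substance P precursor, had 0.58 ± 0.12 (edgeR adjusted p = 0.0282), and Hpca, a neuronal calcium sensor, 0.62 ± 0.15 (edgeR adjusted p = 0.0481). The call for Gal held with each library left out in turn, whereas those for Tac1, Trpv1 and Hpca were lost in 7, 9 and 10 of 12 such fits.

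Of 13 non-peptidergic marker genes, 1 fell and none rose, with a median of -0.14, or -0.11 with GC and length offsets. Over all tested genes 0.877% fell, and the median was -0.06, or 0.014 with the offsets. Lpar3, a lysophosphatidic acid receptor, had 46.1 ± 9.53 CPM at L6S1 and 71.0 ± 14.7 CPM at L345 (SD, n = 6 each; -0.62 ± 0.14, edgeR adjusted p = 0.0355), and its call was lost in 10 of 12 fits with a library left out. Mrgprd, the itch and pain receptor of the class that carries Gfra2, had 472 ± 121 CPM at L6S1 and 556 ± 93.8 CPM at L345 (-0.27 ± 0.13, edgeR adjusted p = 0.206). None of the 5 C low-threshold mechanoreceptor genes passed (median 0.17, or 0.38 with the offsets). Th, tyrosine hydroxylase, had 892 ± 140 CPM at L6S1 and 629 ± 140 CPM at L345 (0.50 ± 0.16, edgeR adjusted p = 0.0838). The summed non-peptidergic markers were 2510 to 3390 CPM at L6S1 and 2360 to 3570 CPM at L345, and the summed C low-threshold mechanoreceptor markers 1220 to 1520 CPM at L6S1 and 805 to 1250 CPM at L345. Both sums overlapped between levels. So did the summed peptidergic markers, at 11100 to 18000 CPM at L6S1 and 9860 to 11200 CPM at L345.

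Of 7 nociceptor transcription factor genes, 1 fell and none rose (median -0.21, or -0.03 with GC and length offsets). Among all tested genes 0.877% fell, with medians of -0.06 and 0.014. Runx1, a factor needed in mouse for Ret expression in non-peptidergic neurons, fell to 74.7 ± 14.4 CPM at L6S1, against 129 ± 18.7 CPM at L345 (SD, n = 6 each; -0.78 ± 0.15, edgeR adjusted p = 0.0191). The offsets gave -0.58 (edgeR adjusted p = 0.00815), and the call was lost in 5 of 12 fits with a library left out. Pou4f1, Klf7 and Isl1, the most abundant of the list, had -0.12, -0.30 and 0.01 and did not pass.

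Of the molecules that carry the RET signal into the cell, 26 of 28 listed adaptors and effectors were tested and none passed in either direction with the main settings. Their median log2 fold change was -0.25, against -0.06 over all genes tested, and 84.6% of them (22 of 26) lay below 0, against 55.5% of all genes tested. Stat3, a transcription factor activated by receptor kinases, had 329 ± 80.9 CPM at L6S1 and 425 ± 43.7 CPM at L345 (SD, n = 6 each; -0.39 ± 0.14, edgeR adjusted p = 0.116). Pik3r1, a regulatory subunit of phosphoinositide kinase, had 211 ± 49.0 CPM at L6S1 and 243 ± 42.4 CPM at L345 (-0.20 ± 0.17, edgeR adjusted p = 0.446). Pdlim7, a scaffold protein that binds RET, had 158 ± 40.4 CPM at L6S1 and 128 ± 21.0 CPM at L345 (0.30 ± 0.17, edgeR adjusted p = 0.259). Shc1 and Grb2, adaptors that bind the active receptor or its partners, had -0.24 and -0.01. With GC and length offsets the median moved to -0.12, against 0.014 over all genes tested. Of the 26 genes, 16 then lay below 0, and the share of all tested genes below 0 was not computed with offsets. Under these offsets Pdlim7 passed, higher at L6S1 (0.47, edgeR adjusted p = 0.0407), in a fit that called 5.24% of all tested genes. Longer transcripts tended to have lower fold changes between levels: Spearman's rho over 15193 genes, a description since genes are no independent replicates, was -0.41 for length and 0.04 for GC content.

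Of 14 listed inhibitors of RET and of the ERK pathway, 12 were tested, and 1 fell while none rose. Lower calls made up 0.877% of all tested genes. The median was -0.46, or -0.28 with the offsets, against -0.06 and 0.014 over all genes tested. Cblb, a ubiquitin ligase of the Cbl family, which marks active receptor kinases for degradation, had 26.2 ± 4.23 CPM at L6S1 and 40.8 ± 6.8 CPM at L345 (SD, n = 6 each). Its log2 fold change was -0.64 ± 0.16 (SE, edgeR adjusted p = 0.0483). The offsets gave -0.39 and an edgeR adjusted p of 0.0934, and the call was lost in 9 of 12 fits with a library left out. With the offsets another member passed, the feedback inhibitor gene Spred2 (-0.46, edgeR adjusted p = 0.0461), which had -0.58 and did not pass without them. The fit with offsets called 5.24% of all tested genes. Ptprf, a receptor phosphatase, and the feedback inhibitor genes Spry2 and Dusp6 had -0.38, -0.50 and -0.17, with edgeR adjusted p of 0.134, 0.153 and 0.437.

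Genes that GDNF and RET switch on in the developing mouse kidney did not pass either: of 10 listed, 6 were tested, with a median of -0.34. Etv5, a transcription factor of that programme, had 35.9 ± 12.3 CPM at L6S1 and 52.5 ± 9.61 CPM at L345 (SD, n = 6 each; -0.56 ± 0.23, edgeR adjusted p = 0.148), and Wnt11 had -0.42 ± 0.28 (edgeR adjusted p = 0.333). Of 6 listed receptors and ligands related to the GDNF family, 4 were tested and none passed (median 0.01, or 0.29 with the offsets). Ncam1, an alternative GDNF receptor, had 164 ± 13.5 CPM at L6S1 and 157 ± 19.5 CPM at L345 (0.07 ± 0.12, edgeR adjusted p = 0.731). Gfral, the distant relative that binds GDF15, and Gdf15 itself were each at 0 counts in at least 1 library, and 1 of these 2 genes in all 12. Neither was tested.

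**Figure D5:**
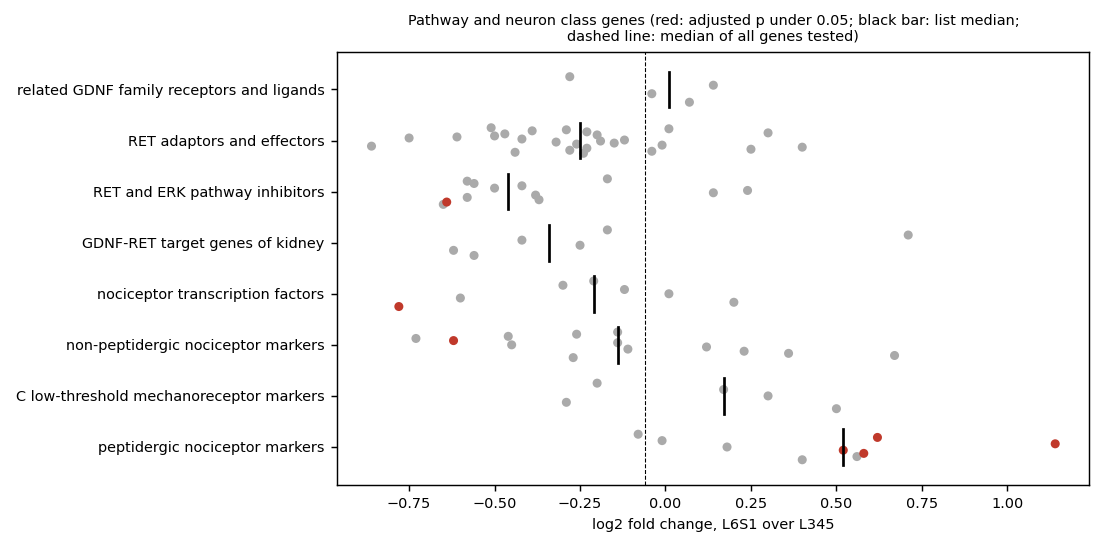
Log2 fold change of L6S1 over L345 for each tested gene of 8 lists, with red points for an edgeR adjusted p under 0.05, a black bar for each list's median and a dashed line at the median of all genes tested (-0.06). The peptidergic list has its median at 0.52 with 4 red points above 0, and Runx1, Lpar3 and Cblb are the red points below 0.

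The genes whose levels ran most alike to those of the receptor genes over the 12 libraries are given as a description, by Pearson r of log2 CPM among 11666 genes with at least 2 CPM. For Ret they were Timp2 (0.95), Mapk1ip1l (0.95) and Bcr (0.94). For Gfra2 they included Csnk1g2 (0.95) and Zbtb45 (0.94), and for Gfra3 they were 1810043G02Rik (0.94), Chac1 (0.94) and Fxyd7 (0.93). The highest values for Gfra1 were lower, at 0.88 for each of Snrnp200, Ntrk2 and Kpna6. All points share their library's depth and base composition, and none of these 11 genes passed the level test (edgeR adjusted p from 0.14 to 0.827).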

How the data were processed

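For each library the authors deposited a table of 41388 Ensembl genes that holds the count, the CPM and the RPKM. RNA (10 ng per pool) was amplified with the SMARTer Ultra Low kit and 12 PCR cycles, per the labels' protocols. The counts are of reads, not of molecules. Subread and featureCounts 1.4.5 on GRCm38.p2 are named in the submitters' processing notes; for the annotation release and the strand setting, the sources used here give nothing, and antisense overlaps cannot be resolved. The deposited CPM is the count scaled to the table's total, and the deposited RPKM is that CPM per kilobase of gene length; neither was tested. GENCODE M21 gave a symbol for 97.3% of genes.

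The test of the deposited counts used edgeR 4.0.16 (R 4.3.3). Libraries were scaled by TMM, 15281 genes were kept by filterByExpr, and a robust quasi-likelihood model was fitted with 1 mean per group (8 residual degrees of freedom, common biological coefficient of variation 0.239). P-values were Benjamini-Hochberg adjusted over all tested genes, with a threshold of 0.05. The level contrast weights both sexes equally and the interaction is the female minus the male level effect. Printed CPM values are TMM-scaled. Female L345 carries the letters B, C and D, and male L345 C is labelled as 5 mice in one field and 3 in another. The labels do not say whether the pools of the levels came from the same mice. Libraries of a group differed beyond sampling noise (chi-square per degree of freedom 10.6 to 140.0), and none was merged.

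Alternatives were scaling by upper quartile or by RLE, limma-voom (limma 3.58.1), DESeq2 1.42.0, 2 filters, a submission term, the first submission alone, a letter block, a glial covariate, offsets for length and GC (splines of 4 df, values for 99.4% of genes), leaving out female L6S1 B and C, and leaving out each library. On simulated counts (14976 genes for level, 15004 for sex, 14999 for the interaction), 87.5%, 86.5% and 12.9% of 2-fold changes and 100%, 100% and 86.9% of 4-fold changes were recovered, with 6.5%, 6% and 4.8% false calls. Only 2-fold and 4-fold changes were simulated, and each gene had the same dispersion in all libraries. The rates thus do not cover changes as small as those estimated between levels for the receptor genes. The 9 genes, the 14 lists and the tests were chosen with earlier results of these data known. From each list the text names genes called between levels and the 3 of highest mean CPM. Some genes that the rule names are not reported here, and 1 of them was taken out of the peptidergic and transcription factor lists after their values were seen. Outside that rule, Spred2, Shc1, Grb2, Gfral and Gdf15 were picked once their values had been seen.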

Additional observations from a re-analysis of the deposited data

Results flagged for a closer look

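Ret at L6S1 had 1 library far from the others. Female L6S1 C had 230 CPM, and the other 5 L6S1 libraries had 137 to 167 CPM. The gap to the nearest library was 0.68 of the whole range, above Dixon's critical value for 6 libraries. Of 22 such checks this was the 1 that passed the critical value, and chance passes about 1 group in 20. The same library had the highest summed immune markers (230 CPM, against 13.8 to 21.2 CPM in the other L6S1 libraries) and fibroblast markers (531 CPM, against 148 to 316 CPM). Its summed general sensory neuron markers were the highest too (16300 CPM, against 11900 to 14900 CPM in the other L6S1 libraries). So were its peptidergic sum (18000 CPM, against 11100 to 17900 CPM) and its glial sum (4880 CPM, against 3990 to 4870 CPM). Its sum of large myelinated neuron markers, 2210 CPM, was low. The part of these differences in the Ret value was not tested. Without female L6S1 C the log2 fold change of Ret between levels was -0.20 (adjusted p = 0.375), and edgeR did not call it.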

How the results depend on the processing

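None of the 5 receptor genes was called in any comparison by edgeR with all 12 libraries, and the signs of Gfra2 and Gfra3 between levels held in all 24 alternatives. Signs that turned were those of Ret between levels (0.11 with the glial covariate, 0.10 with GC and length offsets), Gfra1 between levels (0.06 with the glial covariate), Gfra4 between levels (0.10 in the first submission alone, 0.18 without female L6S1 B and C) and Gfra4 in females (0.03 in the first submission alone). Between the sexes they were Ret (-0.01 without female L6S1 B and C) and Gfra4 (0.13 in the first submission alone, 0.07 without female L6S1 B and C). With a library left out, Gfra3 in females ranged from -0.09 (without female L6S1 A) to 0.23 and was -0.05 without female L345 B, and Gfra1 between the sexes ranged from -0.01 (without female L6S1 C) to 0.23. The cause was not tested.

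Counts of called genes over the whole table moved more than the receptor genes did. Of 356 genes called between levels (222 higher, 134 lower), upper-quartile scaling gave 545 (412 higher, 133 lower), DESeq2 1518, limma-voom 3268, no filter 841, the submission term 125, GC and length offsets 800 (582 higher, 218 lower) and the fit without female L6S1 B and C 137. The replicate block gave 1985 and changed no call of a receptor gene. It groups libraries by letter, and the labels do not say whether those of the same letter and sex share mice. Correlations of their deviations between groups were -0.199 to 0.311 for pairs of the same letter. Same-letter pairs of the same sex had 0.0183 to 0.233, and pairs of different letters -0.332 to 0.338. The count was 80 to 4031 with a library left out: 4031 without female L6S1 A, 883 without female L345 D, and 80 to 186 without each of the other L345 libraries or any male L6S1 library. In males (34 called) the counts were 109 with DESeq2, 1864 with limma-voom, 78 with no filter, 197 in the first submission alone, 20 with the glial covariate, 73 with the offsets and 133 without female L6S1 B and C, and 9 to 60 with a library left out. In females (55 called) they were 750 with DESeq2, 256 with no filter, 128 with the offsets, 24 without female L6S1 B and C, and 17 to 3843, the last without female L6S1 A. Between the sexes (9 called) they were 31 with DESeq2, 24 with no filter and 7 to 991, and for the interaction (0 called) 2 with DESeq2, 2 with limma-voom, 3 with no filter and 0 to 817. The counts of 991 and 817 were also without female L6S1 A. Female L6S1 A is the library of lowest depth, the largest pool (8 mice, 32 ganglia) and the only female L6S1 library of the first submission. Its summed markers of large myelinated neurons were 4170 CPM, against 1340 and 2210 CPM in female L6S1 B and C. Depth, pool, submission and cell content cannot be told apart there. Where a fit leaves a group with 1 library, that library is taken to vary like the other groups. The 4 ligand genes stayed near the floor of 3 counts at the depth of these libraries and could not be compared.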
